A study of Mus musculus with 4 samples.

Results

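The interferon regulatory factors (Irf genes) were examined in LSK cells, the bone marrow fraction sorted as lacking lineage antigens and carrying cKit and Sca1, a population of hematopoietic stem and multipotent progenitor cells. The members were taken by gene symbol from the probe annotation, which gave Irf1, Irf2, Irf3, Irf4, Irf5, Irf7, Irf8 and Irf9, or 8 of 18193 genes named on the arrays, through 14 of 45101 probe sets. Each gene was read from the probe set with the highest mean log2 intensity over the arrays, and 4 members had further probe sets. The study asked how loss of Ncstn, which encodes the gamma-secretase subunit nicastrin, alters expression in these cells. The Ncstn KO group was 2 mice of genotype Ncstn flox/flox Mx1-cre+, and the WT group was 2 littermate mice with the floxed alleles and no Mx1-cre. All 4 mice received polyIC, a synthetic double-stranded RNA that induces interferon, in 3 injections of 20 mcg per g starting at 14 days of age, and cells were collected at 6 weeks of age, 4 weeks after treatment. Each group had 1 female and 1 male, namely Ncstn KO replicate 1 (female), Ncstn KO replicate 2 (male), WT replicate 1 (male) and WT replicate 2 (female).

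The Mx1 promoter that drives cre is itself switched on by interferon, and only the Ncstn KO mice carried this transgene, so the gene deletion and the transgene cannot be told apart in any difference below. Median intensities of the arrays were 71.6 and 79.2 for Ncstn KO and 76.7 and 75.0 for WT, and Pearson's r between arrays over genes was 0.989 to 0.995. The main probe set of Ncstn, the brighter of 2, lay at a log2 intensity of 7.58 and 7.91 in Ncstn KO, against 9.05 and 8.98 in WT. Its change of -1.27 (SE 0.22) did not pass the test across all genes either (limma adjusted p = 0.257). Of the markers that define the sort, Kit lay at 11.70 and 11.73 in Ncstn KO and 11.94 and 11.57 in WT. Ly6a, which encodes Sca1, was not among the genes measured here. Of 6 measured markers of the LSK fraction, Kit included, 2 lay above and 4 below WT, beside 55.8% and 44.2% of all genes. Arrays did not overlap for 1 higher and 1 lower marker, beside 21.3% and 12.8%. The 7 measured T and NK cell markers, 3 above and 4 below WT, summed to 673 to 848 intensity units in Ncstn KO and 494 to 754 in WT. The number of arrays limits every value, and in sorted bulk cells a lower share of expressing cells and less RNA per cell cannot be told apart.

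Irf proteins are transcription factors that share a DNA-binding domain for GAAA-containing elements. Irf3 and Irf7 lie downstream of nucleic acid sensors and switch on interferon genes, Irf9 acts in the ISGF3 complex that reads type I interferon, and Irf1 and Irf2 act as activator and antagonist on overlapping sites. Irf8 and Irf4 are lineage factors that bind with Ets proteins such as PU.1, and Irf8 directs monocyte and dendritic cell fates and restrains neutrophil production. Transcription of Irf1, Irf7 and Irf9 is itself raised by interferon.

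Upstream sequence is shown for Irf8 and Irf9, the 2 members with the smallest p in opposite directions, and for Irf1 as another interferon-induced member. Sequences are from RefSeq (GRCm38.p6, plus strand), each the 250 bases before the first listed start, in lower case with motif matches in capitals. All 8 members had a window in this set. The motifs searched on both strands were the interferon-stimulated response element (ISRE, taken as GAAA, 2 bases of any kind, then GAAA), the Stat-binding gamma-activated sequence (GAS, TTCNNNGAA) and the Ets-Irf composite element (EICE, taken as GGAA, 2 bases of any kind, then GAAA).
Irf8, chr8:120736108-120736357: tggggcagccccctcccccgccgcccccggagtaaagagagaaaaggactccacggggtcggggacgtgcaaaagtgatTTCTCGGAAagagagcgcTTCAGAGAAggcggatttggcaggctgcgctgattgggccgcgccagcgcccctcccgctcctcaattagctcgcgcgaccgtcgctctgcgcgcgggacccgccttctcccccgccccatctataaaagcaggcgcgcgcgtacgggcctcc
Irf1, chr11:53769764-53770013: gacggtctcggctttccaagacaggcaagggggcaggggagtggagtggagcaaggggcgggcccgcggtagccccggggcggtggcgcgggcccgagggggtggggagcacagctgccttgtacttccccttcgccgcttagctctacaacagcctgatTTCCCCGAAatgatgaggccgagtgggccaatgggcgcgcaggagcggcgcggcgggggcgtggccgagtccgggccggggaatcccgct
Irf9, chr14:55603735-55603984: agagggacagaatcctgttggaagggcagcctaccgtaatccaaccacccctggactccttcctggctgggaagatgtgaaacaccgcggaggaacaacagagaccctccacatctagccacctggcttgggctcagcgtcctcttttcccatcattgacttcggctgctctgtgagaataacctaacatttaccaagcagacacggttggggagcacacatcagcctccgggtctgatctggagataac

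Counting back from the start, Irf8 had 2 GAS matches, at -171 to -163 and -153 to -145, and Irf1 had 1, at -90 to -82. Irf2 was the only member with the ISRE and EICE letters, which overlap in its window, beside a GAS match. The stretch of Irf2 at chr8:46739495-46739534 that holds all of them is shown for that reason.
Irf2, chr8:46739495-46739534: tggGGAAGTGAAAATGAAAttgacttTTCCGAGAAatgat
The windows of Irf3, Irf4, Irf5, Irf7 and Irf9 held none of these letters. Over 32851 promoter windows of that length, 2.98% held the ISRE, 7.02% the GAS and 2.3% the EICE letters. A match is a run of letters, not a measured binding site.

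No member passed the limma test across all genes at an adjusted p of 0.05, against a background of 0.00% (0 of 18193 genes, with 1237 at an unadjusted p under 0.05). The members with an unadjusted p under 0.05 were Irf8, higher in Ncstn KO, and Irf9, lower in Ncstn KO, or 2 of 8 beside 6.80% of all genes (4.96% higher and 1.84% lower). Of the 8 members, 4 had a change above 0 and 4 below 0, beside 55.8% and 44.2% of all genes. Both Ncstn KO arrays lay outside both WT arrays for 4 of 8 members, beside 34.0% of all genes, with Irf8 and Irf3 on the higher side and Irf9 and Irf7 on the lower side. The female and the male pair had opposite signs for 3 of 8 members, Irf1, Irf2 and Irf5, beside 44.3% of all genes. The median log2 change over the 8 members was -0.017, and that of all genes was 0.025. The exact permutation p (two-sided) was 0.333 for Irf8, Irf3, Irf9 and Irf7, the smallest that 4 arrays in 2 equal groups allow. Any gene whose arrays do not overlap has this value, so it does not set a member apart.

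**Figure D1:**
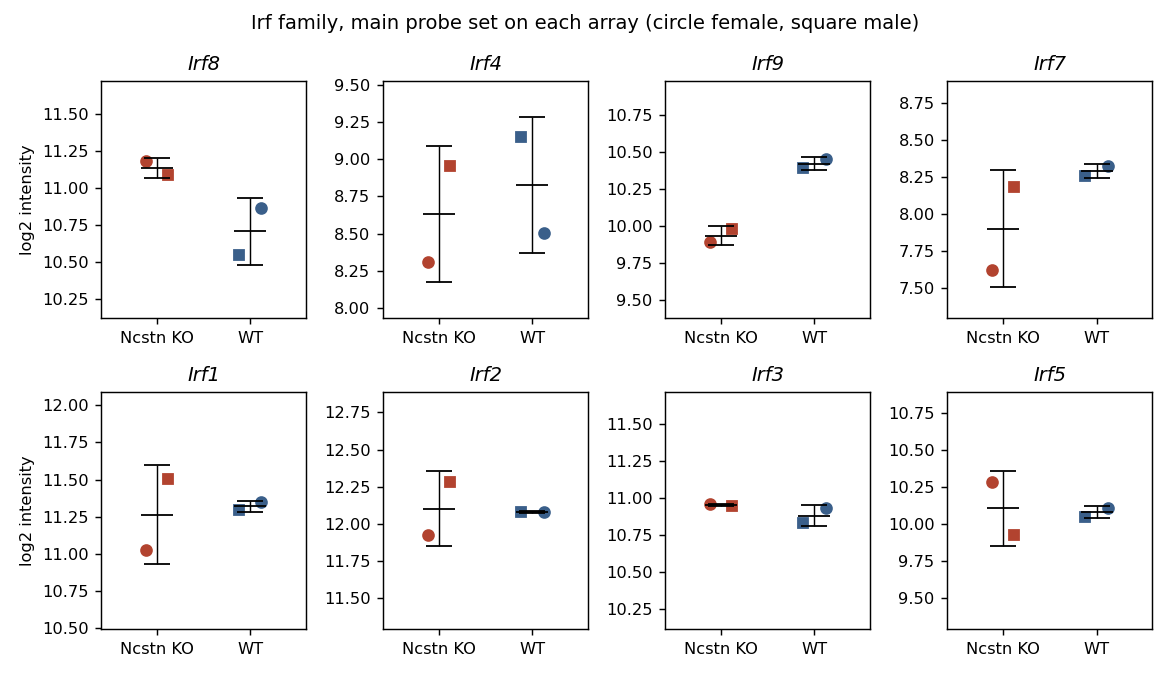
Log2 intensity of the main probe set of each Irf gene on the 4 arrays, Ncstn KO in red and WT in blue, circles for females and squares for males, with the mean and SD of each group (n = 2). Every panel spans the same log2 range around its own centre; Irf8 is higher and Irf9 and Irf7 are lower on both Ncstn KO arrays, while the Ncstn KO arrays lie on either side of WT for Irf1, Irf2 and Irf5.

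Irf8, the myeloid member, was higher in Ncstn KO. Its intensity was 2326 and 2179 in Ncstn KO, against 1499 and 1870 in WT, so that the lower Ncstn KO array stood above the higher WT array. On the log2 scale the group means were 11.14 ± 0.067 in Ncstn KO and 10.71 ± 0.23 in WT (SD, n = 2 each). The change was 0.43 (SE 0.15, 95% interval 0.07 to 0.78), or 1.34-fold, and it did not pass (limma adjusted p = 0.632). The direction was the same in the female pair, at 0.31, and in the male pair, at 0.54. Without WT replicate 1, the lowest array for this gene, the change was 0.27, and it was 0.23 after scaling to the hybridization controls, under which the all-gene median was -0.17. Relative to the median of all genes, the change of Irf8 was 0.40 under either scaling. The 2 values are equal by construction, since scaling to the controls shifts every gene of an array by the same amount.

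The second Irf8 probe set gave the same order of groups. It lay at 9.95 and 9.38 in Ncstn KO, against 8.85 and 9.30 in WT, a log2 change of 0.59 (SE 0.27). The WT replicate 2 array came within a small distance of the lower Ncstn KO array for this probe set.

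Markers of other cell types were read beside Irf8, and none passed the test. Of 8 monocyte and macrophage markers, 6 lay above WT, beside 55.8% of all genes, and 5 did so with arrays that did not overlap, beside 21.3%. Their summed intensity was 13389 and 13517 in Ncstn KO, against 10738 and 9697 in WT (replicates 1 and 2). The macrophage markers C1qa and C1qb were the exceptions and lay below the median level of all genes (8.04) on every array. C1qa was at a log2 intensity of 5.57 and 4.17 in Ncstn KO and 5.43 and 5.70 in WT, and no marker was at 0. All 5 basophil and mast cell markers lay above WT without overlap, beside 21.3% of all genes, with a median change of 1.54. Their sums were 4026 to 4917 in Ncstn KO, against 1843 to 1945 in WT. For 7 dendritic cell markers, of which 4 lay above WT, the sums were 6284 to 7091 in Ncstn KO, against 5828 to 6223 in WT. The 7 mature neutrophil markers were all above WT, but their sums overlapped, at 39353 to 53285 in Ncstn KO and 37864 to 46740 in WT. Erythroid markers had a median change of -1.05, with 3 of 5 below WT without overlap, beside 12.8% of all genes. The other 2 lay above WT, with a largest change of 0.86. The erythroid sums ran opposite to the median, at 3007 to 4094 in Ncstn KO, against 2578 to 2672 in WT. Of 5 B cell markers, 3 lay above WT, 2 of them without overlap, beside 21.3% of all genes. Below WT lay 2, of which only Ms4a1, with -2.12 (SE 0.24), did so without overlap, beside 12.8%. The B cell sums were 2584 to 2967 in Ncstn KO and 2726 to 3211 in WT. The part of these cell types in the Irf8 value was not tested.

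Irf4, the lymphoid relative of Irf8 that also binds with Ets partners, did not separate the genotypes. Its log2 intensity was 8.31 and 8.95 in Ncstn KO, against 9.15 and 8.50 in WT, a change of -0.19 (SE 0.32, 95% interval -0.97 to 0.59). The groups overlapped, although the Ncstn KO array was lower by 0.19 in the female and also in the male pair. With sex in the fit the SE was 0.17. The change turned positive, at 0.13, without Ncstn KO replicate 1 and likewise without WT replicate 1, which leaves the sexes unequal between the groups. Its second probe set was dim, at 4.01 and 4.22 in Ncstn KO and 3.87 and 4.00 in WT, with a change of 0.18 (SE 0.20) and Ncstn KO just above WT.

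Irf9, the DNA-binding subunit of ISGF3, was the member with the smallest p and lay lower in Ncstn KO. Its intensity was 949 and 1010 in Ncstn KO, against 1343 and 1403 in WT, and the gap between the groups was wider than the spread within either. The log2 means were 9.94 ± 0.063 in Ncstn KO and 10.42 ± 0.045 in WT (SD, n = 2 each). The change of -0.49 (SE 0.14, 95% interval -0.82 to -0.15), a 1.40-fold difference, missed the threshold (limma adjusted p = 0.544). The female pair gave -0.56 and the male pair -0.41, and leaving out any 1 array kept the change between -0.53 and -0.44.

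Irf7, the interferon-induced factor that amplifies interferon production, was lower on both Ncstn KO arrays, mainly through 1 of them. Its intensity was 197 and 289 in Ncstn KO, against 306 and 320.2 in WT. Ncstn KO replicate 1, the female, stood well below the other 3 arrays, while Ncstn KO replicate 2 lay just under WT. The log2 change was -0.39 (SE 0.26, 95% interval -1.02 to 0.24), with -0.70 between the females and -0.08 between the males. Without Ncstn KO replicate 1 the change was -0.11, and without Ncstn KO replicate 2 it was -0.67.

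Irf1, an activator induced by both interferon types, showed no separation. It lay at 11.03 and 11.50 in Ncstn KO, against 11.29 and 11.35 in WT, so that the WT arrays sat between the Ncstn KO arrays. The change was -0.06 (SE 0.17, 95% interval -0.47 to 0.36). It was 0.18 without Ncstn KO replicate 1.

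Irf2, the antagonist of Irf1 that in mice restrains interferon signalling in stem cells, lay at 11.92 and 12.28 in Ncstn KO, against 12.08 and 12.08 in WT. As for Irf1, the Ncstn KO female was the lowest array and the Ncstn KO male the highest. The change of 0.02 (SE 0.13) had a 95% interval of -0.29 to 0.34. It turned to -0.17 under scaling to the hybridization controls, beside an all-gene median of -0.17. The Irf2 probe set is of a type (suffix _s_at) whose probes can match more than 1 transcript.

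Irf3, the constitutive factor that sensor kinases activate, had arrays that did not overlap but differed little. Its log2 intensity was 10.96 and 10.95 in Ncstn KO, against 10.83 and 10.93 in WT, a change of 0.07 (SE 0.11, 95% interval -0.21 to 0.35). Scaling to the hybridization controls gave a change of -0.12, beside an all-gene median of -0.17. The next brightest of its 3 other probe sets changed by 0.0016, with overlapping arrays, and the dim ones by 0.24 and 0.31. The main Irf3 probe set carries the suffix _x_at, which marks probes that can hybridize to unrelated transcripts.

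Irf5, which drives inflammatory cytokine genes in macrophages, gave different pictures by probe set. The main one lay at 10.28 and 9.93 in Ncstn KO, against 10.05 and 10.11 in WT, a change of 0.03 (SE 0.17). Under scaling to the hybridization controls that change turned to -0.17, beside an all-gene median of -0.17. The second probe set lay at 8.49 and 8.97 in Ncstn KO, against 8.26 and 8.36 in WT. Both Ncstn KO arrays lay above WT on it, with a change of 0.42 (SE 0.25). The order of the Ncstn KO arrays was reversed between them, with replicate 1 the higher on the main probe set and replicate 2 the higher on the second.

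**Figure D2:**
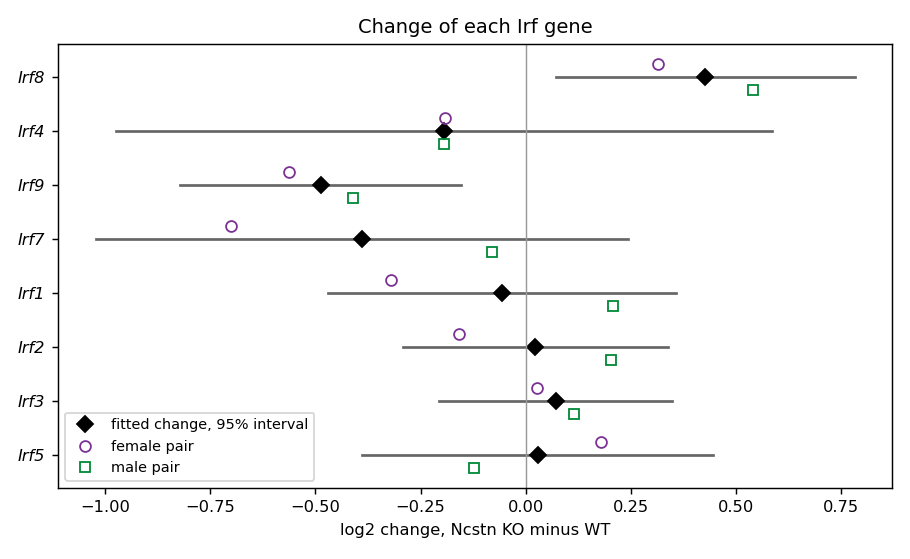
Log2 change (Ncstn KO minus WT) of each Irf gene, with diamonds and lines for the limma estimate and its 95% interval, circles for the female pair and squares for the male pair. The interval lies above 0 for Irf8 and below 0 for Irf9 before any adjustment for the number of genes, and the pairs lie on opposite sides of 0 for Irf1, Irf2 and Irf5.

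The myeloid factor Irf8 lay above WT and the interferon-induced Irf7 and Irf9 below it, while Irf1 had no clear direction. The median log2 change of Irf1, Irf7 and Irf9 was -0.39, that of Irf7 itself, and the change of Irf8 exceeded it by 0.82. That gap was 0.88 in the female pair, where Irf9 holds the median, and 0.62 in the male pair, where Irf7 does. It ran from 0.49 without Ncstn KO replicate 1 to 1.01 without Ncstn KO replicate 2, and adding a constant to an array leaves it as it is. Taken singly, the change of Irf8 exceeded that of Irf9 by 0.91, of Irf7 by 0.82 and of Irf1 by 0.48. The Irf8 and Irf9 gap was alike in both pairs, at 0.88 in females and 0.95 in males, whereas the Irf8 and Irf7 gap was 1.01 in females and 0.62 in males. These gaps are descriptions of 4 arrays and carry no p.

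Among the sensors, adaptors and kinases that activate Irf3 and Irf7, no common direction was seen, with 9 of 18 measured genes above and 9 below WT (median change -0.017) and 0 past the test. The arrays did not overlap for 4 higher and 6 lower of the 18 genes, beside 21.3% higher and 12.8% lower of all genes. The RNA helicases Ifih1, Dhx58 and Ddx58 were among the lower ones. Ifih1, which senses long double-stranded RNA such as polyIC, lay at 9.14 and 9.11 in Ncstn KO, against 9.71 and 9.68 in WT, a log2 change of -0.57 (SE 0.16). Dhx58 had a change of -0.54 (SE 0.26) and Ddx58 of -0.25 (SE 0.16), each with both Ncstn KO arrays below WT. Sting1, the adaptor of DNA sensing, had 0.25 (SE 0.10), with both Ncstn KO arrays above WT. All 3 helicase genes are themselves interferon-induced.

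Of 11 measured receptor and ISGF3 signalling genes, 9 lay above WT, 0 passed, and the median change was 0.14. Usp18, an interferon-induced protease that shuts off the type I receptor, lay at 8.53 and 7.57 in Ncstn KO, against 9.02 and 9.17 in WT, a change of -1.04 (SE 0.34). The interferon-gamma receptor chain Ifngr1 went the other way, at 10.60 and 10.61 in Ncstn KO, against 10.14 and 10.18 in WT, a change of 0.45 (SE 0.13). Ifngr2 had a change of 0.72 (SE 0.40) with overlapping arrays, since WT replicate 1 (9.79) lay with the Ncstn KO arrays and WT replicate 2 was low at 8.52. The kinase Jak1 had 0.14 (SE 0.10). Interferon genes themselves were dim, the 5 measured ones having a median change of -0.017. Ifnb1 lay at 4.37 and 3.99 in Ncstn KO and 3.83 and 3.94 in WT, below the median level of 8.04 over all genes. Ifng (-0.06), Ifna2 (-0.15) and Ifna4 (0.07) had overlapping arrays.

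Genes driven through the ISRE lay below WT for 27 of 30 measured, with 0 past the test, a median change of -0.43 and 22 whose arrays did not overlap, all lower, beside 12.8% of all genes. In this they stood on the same side as Irf9 and Irf7. Rtp4, a chaperone-like antiviral gene, lay at 9.17 and 9.06 in Ncstn KO, against 10.38 and 10.51 in WT, a change of -1.33 (SE 0.16, limma adjusted p = 0.161). Oas2, an enzyme of the RNA decay response, had -1.17 (SE 0.22), Ifi27 -0.64 (SE 0.09) and the death-promoting Xaf1 -0.57 (SE 0.12). The list was chosen with the lower level of interferon response genes in these arrays already known, so its direction is not independent evidence.

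Genes of antigen processing and the interferon-gamma response, classical targets of Irf1, were evenly split. Of 16 measured, 8 lay above and 8 below WT, 0 passed, and the median change was -0.0017. The arrays did not overlap for 4 of the 16, all higher, beside 21.3% of all genes. The peptide transporter gene Tap1 had 0.19 (SE 0.10), the class I transactivator Nlrc5 0.19 (SE 0.11), the GTPase gene Gbp3 0.18 (SE 0.14) and the checkpoint ligand gene Cd274 0.23 (SE 0.18). The lowest change in this list was -0.065, close to that of Irf1 itself.

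Partners of Irf4 and Irf8 did not pass in any case (15 measured, 10 above WT, median 0.05). Spi1, which encodes PU.1, lay at 10.01 and 10.01 in Ncstn KO, against 9.70 and 9.80 in WT, a change of 0.26 (SE 0.15). Cebpa, a granulocyte and monocyte factor, had 0.34 (SE 0.08) and Id2, an inhibitor of E proteins needed for dendritic cells, 0.64 (SE 0.16). Spib, the PU.1 relative of B and plasmacytoid dendritic cells, had -0.73 (SE 0.26), from 7.56 and 8.11 in Ncstn KO, against 8.46 and 8.66 in WT. Over the whole list the arrays did not overlap for 9 of 15 genes, 5 higher and 4 lower, beside 34.0% of all genes.

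Monocyte and dendritic cell genes linked to Irf8 lay above WT for 13 of 17 measured, with 0 past the test, a median change of 0.32 and 8 whose arrays did not overlap, all higher, beside 21.3% of all genes. The genes with the smallest p were Ccr2, Csf1r, Ly86 and Cd68. Ccr2, a chemokine receptor, lay at 10.50 and 9.92 in Ncstn KO, against 8.82 and 8.60 in WT, a 2.82-fold difference (SE 0.24 on the log2 scale, limma adjusted p = 0.233). Ly86, a partner of a Toll-like receptor relative, had a log2 change of 1.04 (SE 0.24), the lysosomal Cd68 0.84 (SE 0.24) and the colony-stimulating factor receptor gene Csf1r 0.75 (SE 0.16). Other genes of the list were mixed. Cybb (0.92, SE 0.28), Ms4a6c (0.49, SE 0.17) and Ctss (0.32, SE 0.11) lay above WT without overlap, whereas the arrays overlapped for the monocyte genes Klf4 and Cx3cr1. The dendritic cell gene Siglech lay at 6.03 and 6.15 in Ncstn KO, above 5.71 and 5.71 in WT, whereas Xcr1 lay at 7.03 and 4.21 in Ncstn KO and 5.14 and 6.24 in WT, and Zbtb46 had 0.15 (SE 0.50) with overlapping arrays. This list, too, was chosen with higher myeloid genes in these arrays already known.

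Corepressors and turnover factors of the Irf proteins lay near WT, with 5 of 9 measured above WT, 0 past the test and a median of 0.013. The highest was Irf2bpl, at 0.32 (SE 0.17), and Irf2bp2, a corepressor of Irf2, had -0.08 (SE 0.10), the ubiquitin ligase genes Rnf31 -0.12 (SE 0.18) and Cul1 0.02 (SE 0.09).

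**Figure D3:**
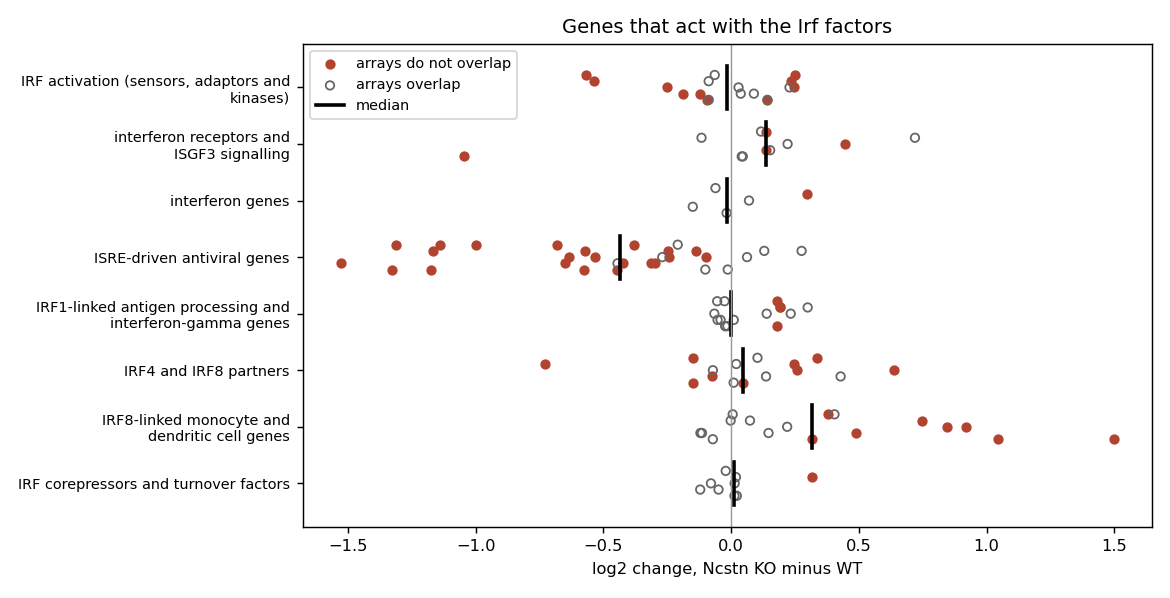
Log2 change (Ncstn KO minus WT) of each measured gene in 8 lists of genes that act with the Irf factors; filled points are genes whose Ncstn KO and WT arrays do not overlap, open points overlap, and the black bar is the list median. The ISRE-driven list lies mostly below 0 (median -0.43) and the Irf8-linked list mostly above 0 (median 0.32), while the medians of the other lists lie between -0.017 and 0.14.

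Irf4 divided the arrays by sex in both genotypes, the females at 8.31 in Ncstn KO and 8.50 in WT and the males at 8.95 in Ncstn KO and 9.15 in WT. In a fit with genotype and sex, looked at after these values were seen, females minus males was -0.65 (SE 0.17), which did not pass (limma adjusted p = 0.574; 0.0220% of all genes passed). Irf5 also divided by sex on its main probe set, with females higher by 0.21 (SE 0.14). The second probe set of Irf4 and that of Irf5 did not divide by sex. On that of Irf5 the Ncstn KO female (8.49) lay below the Ncstn KO male (8.97). Arrays of the sexes did not overlap for 2 of 8 members, beside 40.5% of all genes.

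The genes whose profile over the 4 arrays was most like that of Irf8, by root-mean-square distance of centred log2 values among the 9095 others above the median level, were Rftn1 (0.0069), Prodh (0.0095) and Tk2 (0.013). For Irf7 they were Hbb-b2 (0.030), Prpf40b (0.033) and Lipo3 (0.041). Within a distance of 0.1 lay 133 genes for Irf8 and 35 for Irf7.

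**Figure D4:**
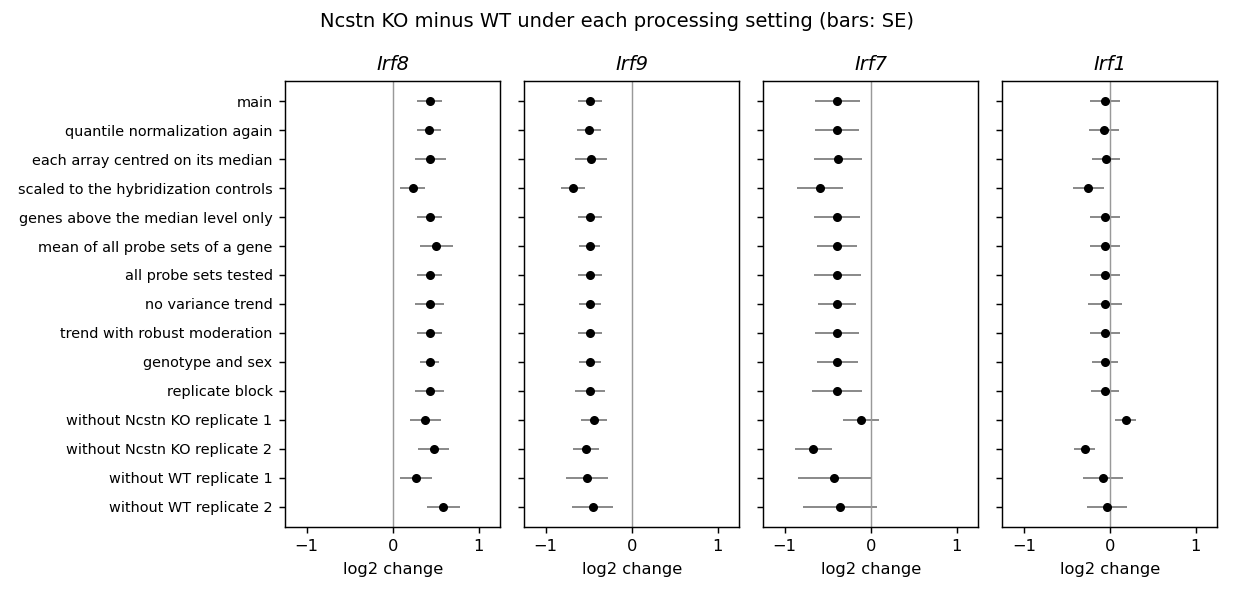
Log2 change (Ncstn KO minus WT, points, with SE bars) of Irf8, Irf9, Irf7 and Irf1 under the main processing and 14 alternatives. Irf8 stays above 0 and Irf9 and Irf7 below 0 in each one, while Irf1 crosses 0 when Ncstn KO replicate 1 is left out. Leaving out 1 array could not turn the sign of Irf8, Irf9 or Irf7, whose Ncstn KO and WT arrays do not overlap.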

How the data were processed

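The deposited values were probe set intensities summarised with RMA per the submitters' processing notes; the sources used here do not give the software or build. Values ran from 3.32 to 23642.6, so the scale was taken as linear and log2 was computed. Per the labels' protocols, the RNA was amplified from 5 ng before labelling. Signal over background was not assessed, as probe-level data were not used here. Of 45101 probe sets, 64 controls were left out, 34945 named 1 gene, 932 several and 9160 none, by the platform annotation of GEO.

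Ncstn KO was compared with WT by limma 3.58.1 in R 4.3.3 (lmFit, eBayes with a variance trend, Benjamini-Hochberg over 18193 genes), with 2 residual and 4.11 prior degrees of freedom. The fit was tested on simulated data. Motifs were searched with Python 3.11.15 and figures drawn with matplotlib 3.10.9. Listed genes were named by the 4 smallest unadjusted p per list. C1qa, C1qb, Siglech, Xcr1, Zbtb46, Klf4, Cx3cr1, Cybb, Ms4a6c, Ctss, Ms4a1 and Kit were named after their values were seen. Members and lists were chosen with earlier results of these data known. Some listed genes were not analysed here. The alternatives were other scalings, gene summaries, filters, variance models and covariates, and each array left out.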

Additional observations from a re-analysis of the deposited data

Results flagged for a closer look

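For 3 members the female and the male pair changed in opposite directions, which was not tested because each sex and genotype has 1 array. Irf1 had a log2 change of -0.32 between the females and 0.21 between the males. Irf2 had -0.16 between the females and 0.20 between the males, and Irf5 had 0.18 between the females and -0.12 between the males. Opposite signs were found for 44.3% of all genes. In each case the 2 Ncstn KO arrays stood on either side of both WT arrays.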

How the results depend on the processing

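Irf7, Irf8 and Irf9 stayed short of the threshold in all 14 alternatives and did not change direction, which the covariate, variance-model and filter alternatives leave fixed in a balanced design. Leaving out 1 array could not turn the direction of Irf7, Irf8 or Irf9 either, because their Ncstn KO and WT arrays did not overlap. Testing all probe sets used the same main probe sets. Changes ran from -0.67 to -0.11 for Irf7, 0.23 to 0.59 for Irf8 and -0.68 to -0.44 for Irf9. The limma adjusted p over these alternatives was at least 0.312, 0.375 and 0.268 for them. Genes called numbered 3 after a second quantile normalization, 62 after centring each array on its median and 2 among genes above the median level, and 0 to 27 when 1 array was left out (23 without Ncstn KO replicate 1, 27 without Ncstn KO replicate 2, 0 without either WT array). No Irf gene was among them. The median change of Irf1, Irf7 and Irf9 was -0.59 when scaled to the hybridization controls and -0.53 to -0.11 without 1 array, and the gap to Irf8 was 0.49 to 1.01 without 1 array. Scaling to the controls turned Irf2 to -0.17, Irf3 to -0.12 and Irf5 to -0.17, and put the all-gene median at -0.17. Relative to the all-gene median their changes were -0.0019, 0.047 and 0.0043. Leaving out 1 array turned the sign of Irf1 (-0.29 to 0.18), Irf2 (-0.16 to 0.20), Irf4 (-0.52 to 0.13) and Irf5 (-0.15 to 0.21); the cause was not tested. With the replicate number as a block, which cannot alter the change of 0.43 for Irf8, its limma adjusted p was 0.975 and 0 genes were called. Same-numbered arrays deviated in opposite directions over genes (r = -0.24), and pairing by sex instead also called 0 genes. A fit without 1 array assumes that the lone array of its group varies like the other group.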
